A study of Mus musculus with 4 samples.

Results

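Interferon-induced genes are the genes that cells switch on when an interferon reaches its receptor. The 40 genes described here were taken from a list of type I and type II interferon-induced genes, and every probe carrying one of these symbols was read in the mouse heart after treatment with cyclophosphamide (CY), acrolein, or N-acetylcysteine (NAC) before CY. They were covered by 71 of the 56605 probes and are 40 of the 37074 gene names on the array. The members comprise 17 antiviral effectors, 5 nucleic acid sensors, 5 transcription factors, 4 regulators and others, 6 GTPases that answer to interferon gamma, and 3 genes of antigen processing.

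Hearts of female C57BL/6J mice were measured on 4 single-colour Agilent arrays of 1 slide, with 1 array for each condition. CY, an alkylating anticancer drug, was given at 400 mg/kg, and acrolein, a reactive breakdown product of CY, at 5 mg/kg. NAC, a glutathione precursor, was given at 200 mg/kg 2 h before CY at 400 mg/kg (NAC + CY). The control was treated with normal saline (NS). All 4 groups were dosed on 2 days and sampled 3 h after the last dose, and the labels give an age of 6 weeks (the study's methods give a lower age). Some of the study's result sentences name a later time for the array data, against 3 h in its methods and in the labels. By the study's methods the RNA came from a section of heart tissue, and not from sorted cells. Changes in the part of the heart taken, in the number of cells of a type and in RNA per cell cannot be told apart. With 1 array per condition no difference has a replicate check, no p-value can be given, and the 3 comparisons against NS share 1 control array. Whether an array held RNA of 1 mouse or a pool of several is not stated in the sources used here.

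Type I interferons act through the receptor pair IFNAR1 and IFNAR2 and the kinases JAK1 and TYK2 and lead to a complex with STAT2 and IRF9 that binds the interferon-stimulated response element (ISRE) in promoters, whereas interferon gamma acts on gamma-activated sites (GAS). Cells also reach the same genes through IRF3, IRF7 and related factors once cytoplasmic sensors have found foreign or misplaced nucleic acid. DNA damage is one known route to such signals.

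The response elements can be read directly in the promoters. In RefSeq promoter windows of the mouse assembly GRCm38.p6, which run from 250 bases before to 50 bases after a transcription start, 31 of the 40 members had a window. The ISRE core, searched on both strands as GAAA, any 2 bases and GAAA again, was present in 17 of these 31 members (54.8%) and in 3.99% of all 27025 genes with a window. The GAS letters TTCNNNGAA, also on both strands, were present in 11 of 31 members (35.5%) and in 9.55% of all genes. Matches may overlap one another and may overlap a match of the other motif. The following stretches are shown because they belong to 4 members that were called in the CY-treated heart (Ifit1, Ifit3, Isg15 and Rsad2), to a GTPase with the same letters that was not called (Irgm1), and to a member with GAS letters (Irf1). Capitals mark the ISRE core, or in Irf1 the GAS, and each sequence is written 5′ to 3′ on the strand of the gene.
Ifit1, chr19:34640760-34640838 (+ strand): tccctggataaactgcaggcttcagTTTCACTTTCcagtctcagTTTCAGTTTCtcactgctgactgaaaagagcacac
Ifit3, chr19:34583348-34583441 (+ strand): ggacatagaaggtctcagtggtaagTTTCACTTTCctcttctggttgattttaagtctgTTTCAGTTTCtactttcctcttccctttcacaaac
Isg15, chr4:156200850-156200921 (- strand): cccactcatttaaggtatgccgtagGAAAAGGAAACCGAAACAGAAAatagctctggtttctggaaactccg
Rsad2, chr12:26456538-26456597 (- strand): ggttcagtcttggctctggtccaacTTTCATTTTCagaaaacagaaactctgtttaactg
Irgm1, chr11:48871421-48871475 (- strand): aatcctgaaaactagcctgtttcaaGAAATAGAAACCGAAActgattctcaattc
Irf1, chr11:53769899-53769957 (+ strand): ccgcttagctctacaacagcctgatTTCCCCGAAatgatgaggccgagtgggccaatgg

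Ifit1 and Ifit3 each held 2 separate ISRE cores, both written on the opposite strand from the gene. Isg15 held 3 that overlap in a single run, Irgm1 held 2 that overlap, and Rsad2 held 1, on the opposite strand. The window of Oasl2, also called in the CY-treated heart, held neither motif. Called members were found with and without these letters. Of the 16 measured members with an ISRE core 3 were called higher and 1 lower in CY against NS (3.38% and 2.81% of all genes), with a median log2 ratio of 0.26, and of the 14 measured members with a window but no ISRE core 1 was called higher, with a median of 0.20. None of the 11 members with GAS letters was called, and their log2 ratios reached 0.33 at most, with a median of 0.17. Among the 19 measured members with a window but no GAS letters 4 were called higher and 1 lower, and the median was 0.37. At the shares of all genes called, a group of 11 holds few calls or none, so the lack of calls in the GAS group does not set it apart. Whether the counts differ between the groups was not tested. Oas2, Mx1, Mx2, Rtp4, Dhx58, Zbp1, Usp18, Parp14 and Iigp1 had no window and are in none of these groups. Their log2 ratios in CY against NS ran from -0.33 for Oas2 to 1.18 for Zbp1. The motif results are descriptions of letters in a window and not of bound sites.

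**Figure D1:**
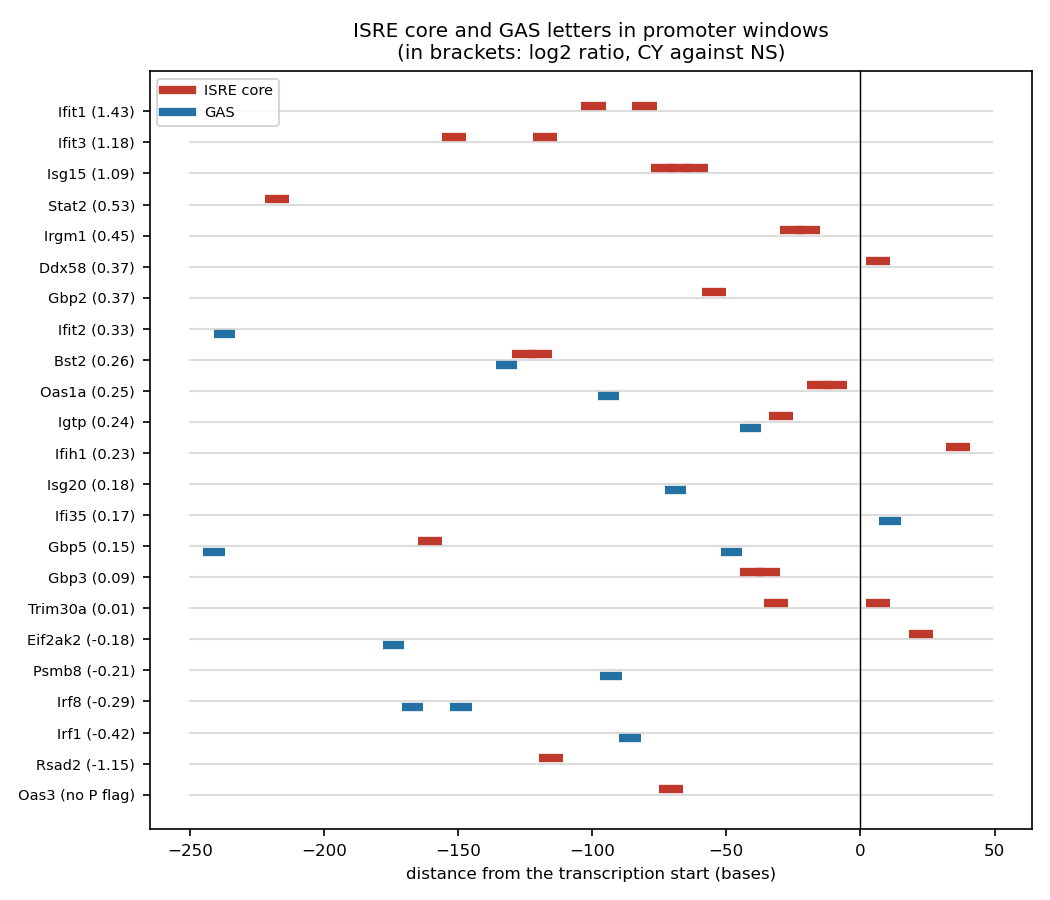
Positions of the ISRE core (red) and GAS (blue) letters in the promoter windows of the 23 members that held at least 1 match, as distance in bases from the transcription start (0); numbers in brackets are the log2 ratio of CY against NS, and members are sorted by it. Ifit1 (1.43) at the top and Rsad2 (-1.15) near the bottom both carry the ISRE core.

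Levels below are quantile-normalised log2 signals in arbitrary fluorescence units, and a log2 ratio is the difference of 2 such signals. A probe with a P flag (present) had a signal that was significant, well above background, unsaturated and free of outlier flags. Each gene is represented by the brightest of its P-flagged probes, judged by the mean over the 4 arrays. A gene was called higher with an intensity-based Z-score of at least 2 and a ratio of at least 1.5, and lower with a ratio of at most 0.66 and a Z-score of at most -2. This Z-score sets a log2 ratio against the mean and the SD of the 200 probes nearest in signal. By these rules 39 of 40 members were measured, 38 of them with a P flag on all 4 arrays. Oas3, an oligoadenylate synthetase, had no P flag on any array, and Mx1 had one in the CY-treated heart alone. All 10 cardiomyocyte markers stood at or above the 92.1 percentile of signal on every array, and 3 of them (Actc1, Ryr2 and Ttn) were called lower in CY and in NAC + CY than in NS.

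In the CY-treated heart 4 of 39 measured members were called higher than in NS, namely Ifit1, Ifit3, Isg15 and Oasl2, and 1, Rsad2, was called lower. Across all 19721 genes measured, 3.38% were called higher and 2.81% lower. All 5 called members are antiviral effectors. The other 34 members were not called, yet most lay on the same side. The log2 ratio was above 0 for 30 of 39 members, and the median was 0.26, with quartiles of 0.05 and 0.55, against a median of -0.02 and quartiles of -0.28 and 0.26 over all genes. By the ratio of 1.5 alone, 9 members were higher (8 without Mx1, whose probe was below background in NS) and 2 lower, where the same rule took 11.7% of all genes as higher and 10.7% as lower.

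**Figure D2:**
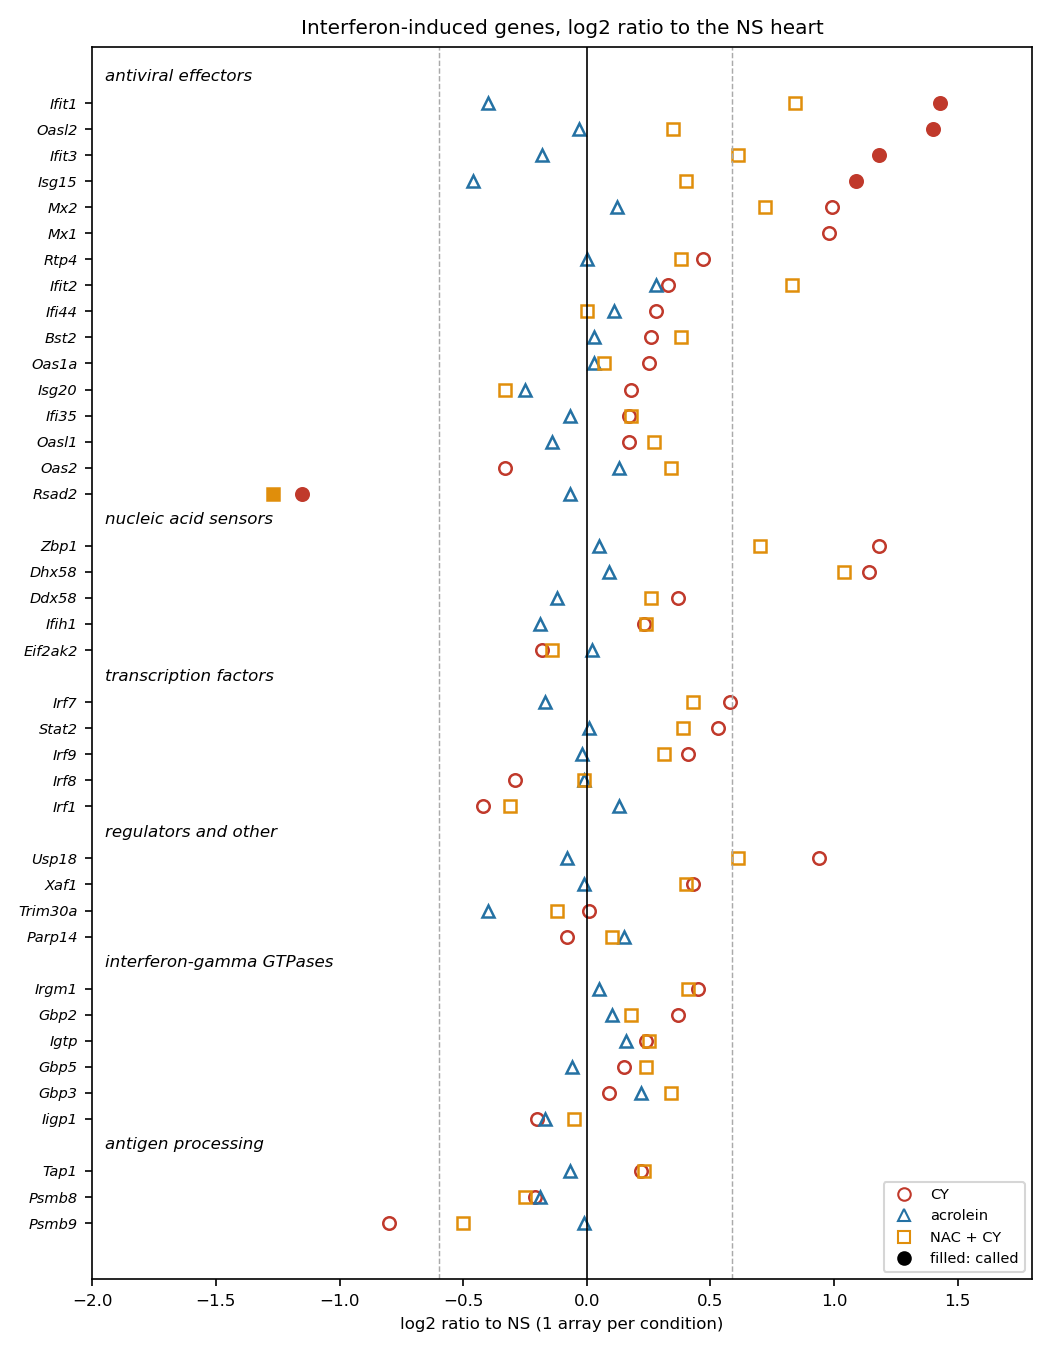
Log2 ratio to NS (x axis) of each measured member in CY (red circles), acrolein (blue triangles) and NAC + CY (orange squares), grouped by role, with filled symbols for called genes and dashed lines at ratios of 1.5 and 0.66. The acrolein symbols lie between -0.46 and 0.28, while CY spans -1.15 to 1.43.

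Ifit1 and Ifit3, which encode tetratricopeptide repeat proteins that bind foreign RNA ends and RNA complexes, were the first pair among the raised effectors. The Ifit1 probe (chr19:34723827-34723886, mm9) gave a log2 signal of 7.97 in CY, 6.14 in acrolein and 7.38 in NAC + CY, against 6.54 in NS. Its ratio of CY to NS was 2.70-fold (log2 ratio 1.43, Z-score 2.50). The CY array was highest, NAC + CY second, and acrolein lay below NS by 0.40 on the log2 scale.

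For Ifit3 (chr19:34663105-34663164, mm9) the log2 signals were 9.72 in CY, 8.36 in acrolein and 9.15 in NAC + CY, against 8.54 in NS. The order of the 4 arrays matched that of Ifit1, and CY was 2.27-fold above NS (log2 ratio 1.18, Z-score 2.20). Ifit2, a neighbour in the same gene cluster on chromosome 19 and a member of the same family, had a different order. It gave 5.95 in CY, 5.89 in acrolein and 6.45 in NAC + CY, against 5.61 in NS, so that NAC + CY was highest, and its log2 ratio of CY to NS was 0.33 with no call.

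Isg15, a ubiquitin-like protein that is joined to other proteins during the interferon response, was the brightest of the called members. The log2 signal at chr4:155573649-155573708 (mm9) was 11.21 in CY, 9.66 in acrolein and 10.53 in NAC + CY, against 10.12 in NS. The CY heart was 2.12-fold above NS (log2 ratio 1.09, Z-score 2.52). In acrolein the log2 ratio of -0.46 had a Z-score of -3.02 in the narrow spread of that comparison, but the ratio did not reach 0.66 and Isg15 was not called there.

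Oasl2, a relative of the oligoadenylate synthetases, had the highest Z-score of the members in CY against NS (2.73). At chr5:115362168-115362227 (mm9) its log2 signal was 10.20 in CY, 8.78 in acrolein and 9.15 in NAC + CY, against 8.80 in NS. CY stood alone at 2.64-fold above NS (log2 ratio 1.40), acrolein and NS differed by 0.03, and NAC + CY lay slightly above both. Its neighbour Oasl1, at a log2 ratio of 0.17, and the oligoadenylate synthetases Oas1a at 0.25 and Oas2 at -0.33 were not called. The accessions of the Oas1a probe name Oas1g as well, so that the probe may read both genes.

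Rsad2, which encodes the antiviral enzyme viperin, ran the other way. Its log2 signal at chr12:27127859-27127918 (mm9) was 7.41 in CY, 8.50 in acrolein and 7.30 in NAC + CY, against 8.56 in NS. Both hearts that had received CY were below both that had not, and Rsad2 was called lower in CY (log2 ratio -1.15, Z-score -2.24), a call that was lost with a window of 100 probes and at a Z-score of 3. A second, dimmer probe of the gene gave 3.97 in CY, 4.29 in acrolein and 3.63 in NAC + CY, against 5.47 in NS, and was lower than NS on all 3 other arrays, acrolein included. Among the measured effectors with an ISRE core, Rsad2 was the only one with a log2 ratio below 0 in CY, and it was the only member called lower than NS on any array.

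**Figure D3:**
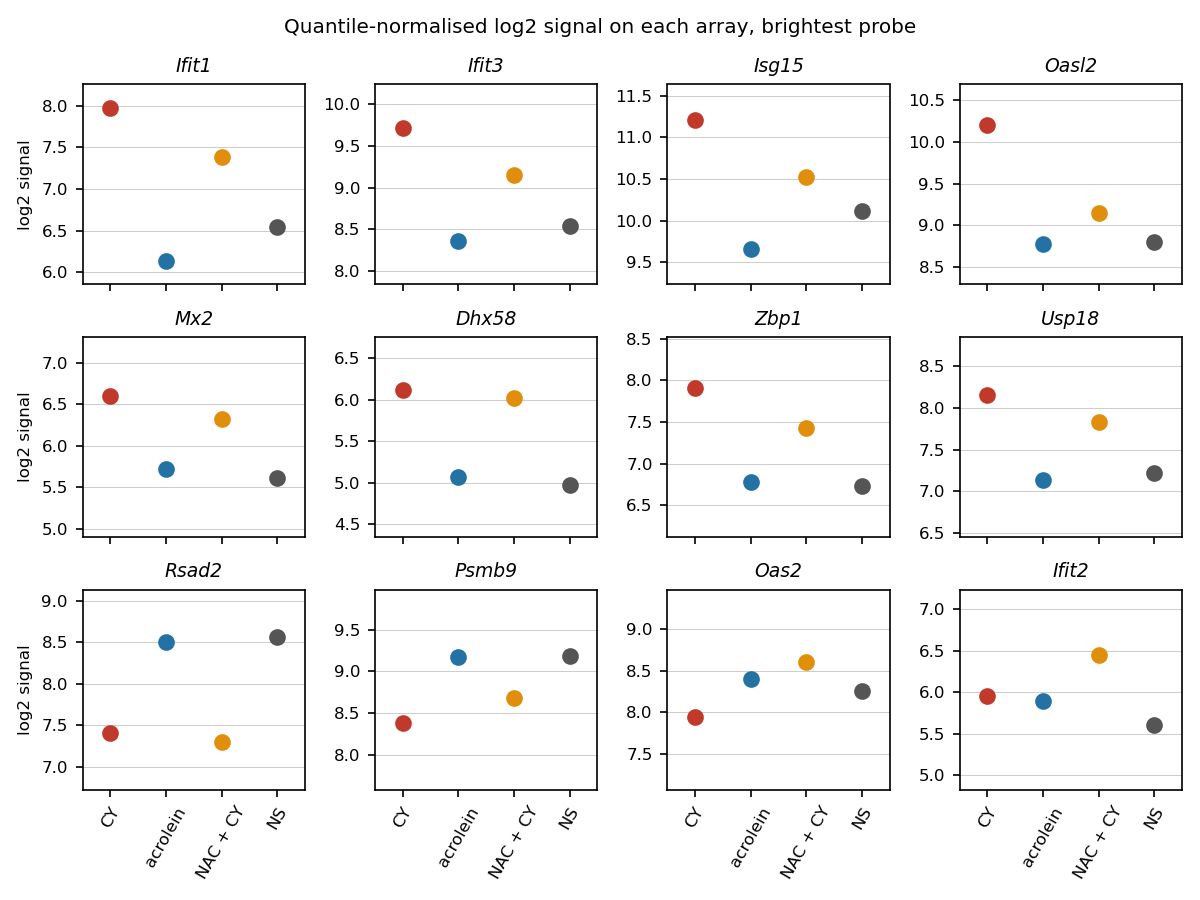
Quantile-normalised log2 signal of the brightest probe of 12 members on each array, in the order CY (red), acrolein (blue), NAC + CY (orange) and NS (grey), with each panel spanning the same number of log2 units. In the upper 8 panels CY is highest and NAC + CY second, and in the Rsad2 panel both lie about 1 unit below the other arrays.

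Among the remaining genes of the effector list Mx2, of the dynamin-like GTPase family, gave 6.60 in CY, 5.72 in acrolein and 6.32 in NAC + CY, against 5.61 in NS. The order was that of Ifit1 with respect to the CY-treated hearts, and the log2 ratio was 0.99, which was not called (Z-score 1.56). Mx1, which carries a disabling deletion in C57BL/6 mice, was well above background in CY alone, at least 1.49-fold higher than in NS. This bound takes the dimmest well-above-background signal of the NS array as the level of Mx1 there. The measured log2 signals were 4.61 in CY and 3.63 in NS. With another background correction (normexp) the log2 ratio was 0.25, so the bound holds for the main processing only. Rtp4, a Golgi chaperone for receptors, had a log2 ratio of 0.47. Ifi44 (0.28), the membrane tether Bst2 (0.26), the exonuclease gene Isg20 (0.18) and Ifi35 (0.17) lay closer to 0.

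The 5 sensors of nucleic acid had a median log2 ratio of 0.37 in CY against NS, with none called and 4 of 5 above 0. Zbp1, a sensor of Z-form nucleic acid that can start necroptosis, gave 7.91 in CY, 6.78 in acrolein and 7.43 in NAC + CY, against 6.73 in NS. Its log2 ratio of 1.18 (Z-score 1.87) equalled that of Ifit3, which was called, since the probes nearest to Zbp1 in signal were spread more widely. A second Zbp1 probe had a log2 ratio of 0.76.

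Dhx58, which encodes LGP2, a regulator of the RNA sensors RIG-I and MDA5, gave 6.12 in CY, 5.07 in acrolein and 6.02 in NAC + CY, against 4.98 in NS. The 4 arrays fell into a high pair that had received CY and a low pair that had not, about 1 log2 unit apart. The log2 ratio of 1.14 in CY had a Z-score of 1.55, and that of 1.04 in NAC + CY had 1.58. Neither was called. The size of the gap depended on the processing, and alternatives gave log2 ratios to NS as low as 0.51 in CY and 0.45 in NAC + CY. Ddx58, which encodes RIG-I, had a log2 ratio of 0.37 and Ifih1, which encodes MDA5, 0.23. The RNA-dependent kinase gene Eif2ak2 had -0.18.

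None of the 5 transcription factors was called in CY against NS, and their log2 ratios lay on both sides of 0. Irf7, which amplifies interferon production, had 0.58, and Stat2 and Irf9, partners in the complex that binds the ISRE, had 0.53 and 0.41. Irf1, an early target of interferon gamma, had -0.42, and Irf8, a factor of myeloid cells and B cells, had -0.29. For Irf7 the log2 signals were 11.59 in CY, 10.85 in acrolein and 11.45 in NAC + CY, against 11.02 in NS, so that both hearts given CY were above the others, and a second Irf7 probe had a log2 ratio of 0.52.

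Usp18, which removes ISG15 from proteins and dampens signalling at the type I receptor, gave 8.16 in CY, 7.14 in acrolein and 7.83 in NAC + CY, against 7.22 in NS. It shared the order of the raised effectors, with a log2 ratio of 0.94 (Z-score 1.71), below the call. The apoptosis-related Xaf1 had 0.43, Trim30a, which restrains Toll-like receptor signalling in mice, 0.01, and the 2 probes of the ADP-ribosyltransferase gene Parp14 lay on either side of 0, at -0.08 and 0.27.

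The 6 member GTPases of the interferon-gamma response stayed within a narrower range on their brightest probes. Their log2 ratios in CY against NS were 0.45 for Irgm1, 0.37 for Gbp2, 0.24 for Igtp, 0.15 for Gbp5, 0.09 for Gbp3 and -0.20 for Iigp1. All 3 detected probes of Irgm1 gave similar values, 0.45, 0.47 and 0.52. The 2 probes of Gbp5 pointed in opposite directions, at 0.15 and -0.63, and no direction is given for that gene. A second Iigp1 probe, below background in CY, had -0.81. None of the 6 was called. At 3.38% of all genes called higher and 2.81% lower, a group of 6 holds few calls or none. Among related GTPases outside the members, Gbp6 (1.61) was called higher and Gbp4 (-1.50) lower. Gbp7 (-0.57), Ifi47 (0.34) and Irgm2 (0.07) were not called.

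Of the 3 genes of antigen processing, which lie together on chromosome 17, Psmb9, an inducible subunit of the immunoproteasome, had the lowest log2 ratio at -0.80. It gave 8.38 in CY, 9.17 in acrolein and 8.68 in NAC + CY, against 9.18 in NS. Acrolein and NS were nearly equal and both hearts that had received CY lay below them, with a Z-score of -1.89 in CY and no call. Psmb8, the companion subunit, had -0.21. The 2 detected probes of the peptide transporter gene Tap1 pointed in opposite directions, at 0.22 and -0.22, and no direction is given.

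The spread of the method sets how these values can be read. The SD of the 200 probes nearest to a member in signal ran from 0.39 to 0.89 log2 units in CY against NS, and from 0.11 to 0.40 in acrolein against NS. Different probes of the same member disagreed by a pooled SD of 0.24 in CY against NS, over the 17 members with at least 2 measured probes. Repeated spots of the array's 297 probes with repeats differed by an SD of 0.072 to 0.104, and no member probe was spotted more than once. Irf7 at a log2 ratio of 0.58, for example, lay 1.18 such SDs above the mean of its neighbours in signal, within the spread of unrelated probes.

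**Figure D4:**
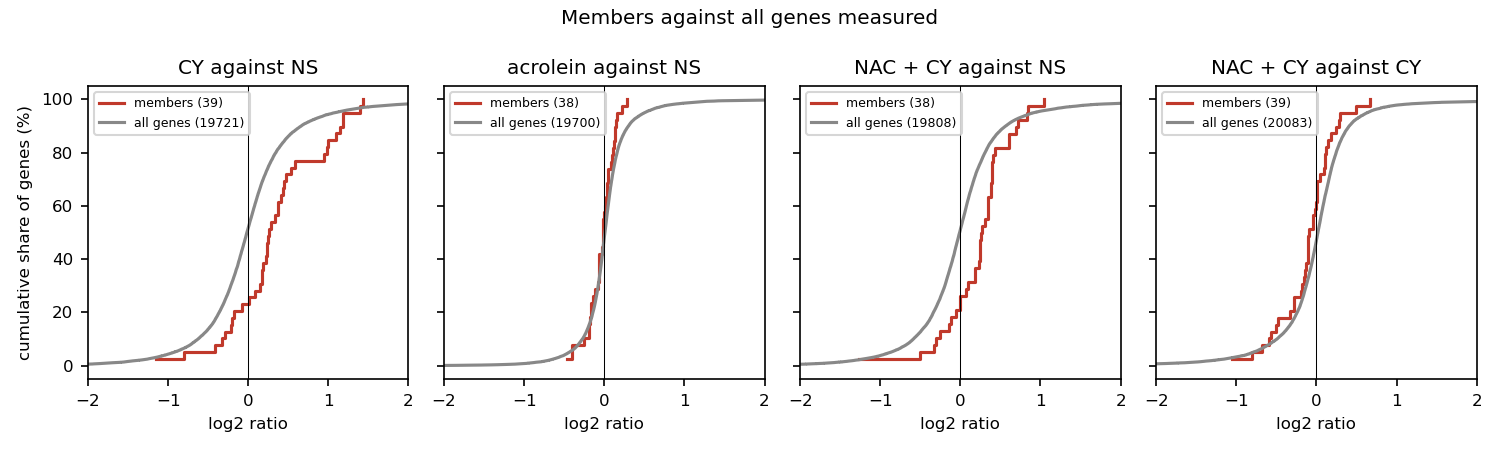
Cumulative share of genes (y axis, %) against log2 ratio (x axis) for the measured members (red) and for all genes measured (grey) in each of the 4 comparisons. In CY against NS and NAC + CY against NS the red curve is shifted to the right around its median, 0.26 and 0.27, while in acrolein against NS both curves cross 0 near their middle.

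In the acrolein-treated heart no member was called higher or lower than in NS among 38 measured, where 1.08% of 19700 genes were called higher and 1.29% lower. At such shares a group of 38 holds few calls or none. On its brightest probe no member passed a ratio of 1.5 or 0.66 either, a rule that took 3.97% and 2.87% of all genes. A second, dimmer probe of Rsad2 was called lower (log2 ratio -1.18, Z-score -3.15). The log2 ratios of the brightest probes ran from -0.46 for Isg15 to 0.28 for Ifit2. Their median was -0.01 against 0.01 over all genes, and 16 of 38 were above 0. Set directly against acrolein, the CY array was higher for 29 of 39 members, with a median log2 ratio of 0.31, where 47.4% of 20264 genes were higher and their median was -0.02. Of the members 10 were past 1.5-fold higher (9 without Mx1, which was below background in acrolein) and 2 past the lower ratio of 0.66, a rule that took 12.1% and 12.9% of all genes. Ifit1 had the widest gap between these arrays, 1.83 log2 units.

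When NAC was given before CY, no member was called higher than in NS among 38 measured, and Rsad2 was called lower (log2 ratio -1.27, Z-score -2.64), which normexp, a floor on dim signals and a Z-score of 3 each undid. Of 19808 genes, 2.68% were called higher and 2.59% lower. The middle of the distribution was almost where it was in CY, at a median of 0.27 with quartiles of 0.02 and 0.40, and 29 of 38 members were above 0 against a median of -0.01 over all genes. By the ratio alone 7 members were higher, Dhx58 (1.04), Ifit1 (0.84), Ifit2 (0.83), Mx2 (0.72), Zbp1 (0.70), Ifit3 (0.61) and Usp18 (0.61), and 1, Rsad2, was lower. That rule took 9.61% of all genes as higher and 9.67% as lower.

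The direct comparison of NAC + CY with CY called 1 of 39 members higher, Oas2, and 2 lower, Isg15 and Oasl2, where 1.54% of 20083 genes were called higher and 2.82% lower. Oasl2 was at 9.15 in NAC + CY and 10.20 in CY, a log2 ratio of -1.05 with a Z-score of -4.43, the strongest of any member in any comparison. Isg15 was at 10.53 in NAC + CY and 11.21 in CY (log2 ratio -0.68, Z-score -2.38). Ifit3, at 9.15 in NAC + CY and 9.72 in CY, had a Z-score of -2.21 but stopped short of the ratio of 0.66. By the ratio alone 1 member was higher (Oas2) and 3 were lower (Isg15, Oasl2 and Mx1), where that rule took 5.82% and 7.86% of all genes. Mx1 was not well above background in NAC + CY. Its measured log2 ratio of NAC + CY to CY was -0.80, and alternative processing gave values from -0.85 to -0.19.

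Oas2, the synthetase that makes the activator of RNase L, moved the other way at chr5:121180343-121180402 (mm9). It gave 7.94 in CY, 8.40 in acrolein and 8.60 in NAC + CY, against 8.26 in NS. The value in NAC + CY was highest and that in CY lowest, and NAC + CY was above CY by 0.67 log2 units (Z-score 2.05). This call was lost with normexp background correction, with windows of 100 and 400 probes and at a Z-score of 3. Over all 39 members the median was -0.09 with quartiles of -0.24 and 0.10, against a median of 0.02 over all genes, and 16 of 39 were above 0. Among members not called, Ifit1 had -0.59, Isg20 -0.51, Zbp1 -0.48, Usp18 -0.33, Mx2 -0.28 and Dhx58 -0.10, and Ifit2 had 0.50.

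**Figure D5:**
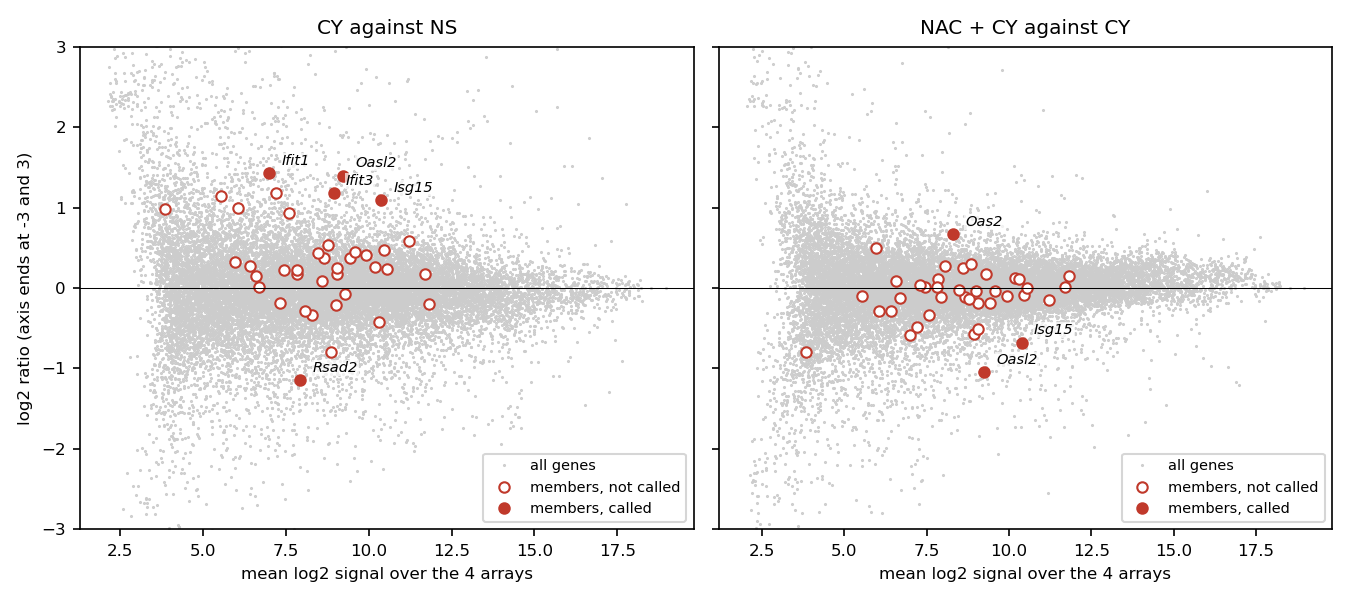
Log2 ratio (y axis, ending at -3 and 3) against mean log2 signal over the 4 arrays (x axis) for all genes measured (grey), members not called (open red) and members called (filled red), in CY against NS and in NAC + CY against CY. Oasl2 and Isg15 lie towards the upper edge of the cloud on the left (1.40 and 1.09) and towards its lower edge on the right (-1.05 and -0.68).

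Across the 4 arrays, 26 of 39 members had both hearts that received CY above both that did not, where 27.9% of 20738 genes had this order. The reverse order held for 5 members, where 31.9% of genes had it. The highest signal was in CY for 21 members, in NAC + CY for 10, in acrolein for 3 and in NS for 5. The lowest was in acrolein for 17 members and in NS for 11, against 7 in CY and 4 in NAC + CY. This order uses no threshold, and with 1 array for each condition it cannot tell treatment from other differences between the arrays or mice.

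Upstream of these genes little signal was found for the interferons themselves. Of 9 genes for interferon ligands, 8 had a probe and 1 had a P flag, the type III interferon Ifnl3, at 4.66 in CY, 5.37 in acrolein and 5.23 in NAC + CY, against 5.29 in NS. Its values were dim and uncalled, and lowest in CY. Ifnb1, Ifna1, Ifna2, Ifna4, Ifng, Ifne and Ifnk were not above background on any array. Of the 10 receptor and kinase genes, 1 was called in CY against NS, the interferon-gamma receptor chain Ifngr2, which gave 11.95 in CY, 13.10 in acrolein and 12.30 in NAC + CY, against 12.99 in NS (log2 ratio -1.04 in CY). The other receptor chains had log2 ratios in CY of 0.07 for Ifngr1, -0.05 for Ifnar1, -0.14 for Ifnar2, -0.18 for Ifnlr1 and -0.40 for Il10rb. Among the kinases Jak2 had 0.50, Tyk2 0.11 and Jak1 -0.14.

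A wider set of 80 genes of the pathway, in 6 lists, had a median closer to 0 but a wider range. Of 66 measured in CY against NS, 6 were called higher and 4 lower, where 3.38% and 2.81% of all genes were. The median was 0.05 and the log2 ratios ran from -2.44 to 1.62. The higher ones were Cxcl10, Gbp6, Ifi204, Ifi205, Ifitm3 and Socs3, and the lower ones Ciita, Cxcl9, Gbp4 and Ifngr2. The list most like the members, further interferon-induced genes, had 25 measured, of which 4 were called higher and 2 lower. Its median was 0.07, and 15 of 25 were above 0. Ifitm3, which blocks virus entry, gave 13.59 in CY, 12.76 in acrolein and 13.44 in NAC + CY, against 12.80 in NS, the order of the raised members. Cxcl9, a chemokine made in answer to interferon gamma, gave 4.28 in CY, 6.66 in acrolein and 5.05 in NAC + CY, against 6.72 in NS, so that, as for Rsad2, both hearts that received CY were below both that did not.

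Socs3, a feedback inhibitor of cytokine signalling that interleukin 6 also induces, was called higher on every treated array, at 9.92 in CY, 9.55 in acrolein and 10.25 in NAC + CY, against 8.46 in NS. Cxcl10, a chemokine that several inflammatory signals induce, was not well above background in NS and was at least 2.38-fold higher in CY and at least 3.56-fold higher in acrolein. In acrolein these and Gbp6 were the 3 called higher of 65 measured on the pathway lists, with none lower, where 1.08% and 1.29% of all genes were called. Gbp6 gave 9.71 in CY, 8.95 in acrolein and 10.72 in NAC + CY, against 8.10 in NS. No member was called in acrolein on its brightest probe.

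In NAC + CY against NS the pathway lists held 6 genes called higher (Gbp6, Ifi204, Ifi205, Ifi27l2a, Ifitm1 and Socs3) and 4 lower (Ciita, Cmpk2, Cxcl9 and Gbp4) of 66, where 2.68% and 2.59% of all genes were called, with a median of 0.06. Cmpk2, a mitochondrial nucleotide kinase whose gene lies beside Rsad2, gave 7.48 in CY, 7.65 in acrolein and 6.73 in NAC + CY, against 7.76 in NS. It shared with Rsad2 the lowest value in NAC + CY, but not the low value in CY, where its log2 ratio was -0.28. Against CY, NAC + CY had 2 called higher (Gbp6 and Ifitm1) and 1 lower (Cmpk2) of 65, where 1.54% and 2.82% of all genes were called.

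Several cell types whose RNA was present in these hearts moved with the same contrasts. In CY against NS 2.81% of all genes were called lower. Of 11 measured T and natural killer cell markers 4 were called lower and none higher. Their summed signal was 1170 in CY, 1760 in acrolein and 1130 in NAC + CY, against 1530 in NS. Without Cd4, the brightest, the sums were 432 in CY, 898 in acrolein and 420 in NAC + CY, against 800 in NS. Cd3d was below background in CY and in NAC + CY, whereas Cd4 (log2 ratio 0.03 in CY) and Cd3e (-0.26) were detected on all 4 arrays and not called. Of the B cell markers 3 of 5 were lower. Monocyte and macrophage markers had 1 of 15 called, Cx3cr1, which was lower, and their summed signal was 67000 in CY, 62000 in acrolein and 63500 in NAC + CY, against 56000 in NS. Without Ly6c2, the brightest, the sums were 44000 in CY, 42800 in acrolein and 32300 in NAC + CY, against 37500 in NS. In NAC + CY against NS 3 of these 15 markers were called lower (2.59% of all genes) and 12 were below 0. None of 4 measured dendritic cell markers was called, but all 4 were below 0, with a median log2 ratio of -0.90 in CY. Cardiomyocyte markers were below 0 in CY for 9 of 10, with a median of -0.20, and summed to 1500000 in CY, 1790000 in acrolein and 1580000 in NAC + CY, against 1790000 in NS.

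Other sources were higher in CY against NS, where 3.38% of all genes were called higher. All 7 platelet markers were called higher, with a summed signal of 7640 in CY, 2800 in acrolein and 2080 in NAC + CY, against 2880 in NS. Without Pf4, the brightest, the platelet sums were 2030 in CY, 118 in acrolein and 118 in NAC + CY, against 156 in NS. Also called higher were 6 of 7 mesothelial markers (6930 in CY, 1200 in acrolein and 2350 in NAC + CY, against 2320 in NS) and 5 of 6 atrial markers (800000 in CY, 382000 in acrolein and 490000 in NAC + CY, against 306000 in NS). Neutrophil markers were called higher for 2 of 7 in CY, 4 of 6 in acrolein and 5 of 7 in NAC + CY. The shares of all genes called higher were 3.38%, 1.08% and 2.68%. These markers summed to 10900 in CY, 12500 in acrolein and 13400 in NAC + CY, against 9710 in NS. Without Csf3r, the brightest, the neutrophil sums were 1670 in CY, 3050 in acrolein and 4300 in NAC + CY, against 564 in NS. In acrolein 6 of 7 mesothelial markers were called lower than in NS, where 1.29% of all genes were.

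Isg15 and Oasl2 were lower in NAC + CY against CY, where 2.82% of all genes were called lower and 1.54% higher. In that contrast 6 of 7 platelet, 6 of 7 mesothelial and 5 of 8 fibroblast markers were called lower. So were 4 of 6 atrial and 3 of 15 monocyte and macrophage markers, and 6 of 7 hepatocyte markers were called higher. The hepatocyte markers summed to 2300 in CY, 1370 in acrolein and 9880 in NAC + CY, against 1600 in NS. Without Apoa2, the brightest, the hepatocyte sums were 1320 in CY, 315 in acrolein and 7300 in NAC + CY, against 442 in NS. Alb was well above background in NAC + CY alone, at a log2 signal of 11.88. All 7 hepatocyte markers were called higher in NAC + CY against NS, where 2.68% of all genes were. The part of any of these cell types in the values of the interferon-induced genes was not tested.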

How the data were processed

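Heart RNA of 4 groups was measured on 1 single-colour array each. The deposited intensity values are background-subtracted spot signals that the authors extracted with Agilent Feature Extraction (version 9.5.1.1 in the submitters' processing notes). The authors' deposited value table holds linear intensity values of the same arrays, each with a median of 13.9, and was used as an alternative. The study's methods name quantile normalisation, a P flag in at least 1 sample, the ratio and the Z-score, which were followed. The Z-score window is not given in the sources used here.

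Log2 signals of 59305 non-control spots were quantile-normalised over the 4 arrays and spots were averaged per probe, 56605 in all. Between 26677 and 28312 probes per array were well above background and no spot was saturated. Precision is limited by the number of arrays, and a probe below that level gives a bound. A probe entered a comparison with a P flag on at least 1 of the 2 arrays. Although 3 independent studies are mentioned in the series text, each condition has 1 array here. All 71 member probes were matched by the gene name in the array files, on mm9, and matching by accession or synonym gave the same 71.

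The members and lists were chosen with earlier results of these data known. Values on every array are given for called members and for others past the ratio alone or otherwise described, and other genes were named from the ligand and receptor lists or among those called or largest in their list. One gene of the receptor and kinase list is not reported here. Motif letters were read in RefSeq promoters. The calling rule was run on simulated data with known changes. The simulated spread was 0.22, the median SD of probes near in signal in acrolein against NS. In CY against NS that median was 0.58, so the simulation does not bear on the calls made there. The 14 alternatives covered normalisation, background, filters, floor, window, criteria, probe choice and the value table. The normexp correction, with an offset of 50, came from limma 3.58.1 (R 4.3.3), and the rest was run in Python 3.11.15 (pandas 2.3.3, numpy 2.4.6, matplotlib 3.10.9, scipy 1.17.1).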

Additional observations from a re-analysis of the deposited data

How the results depend on the processing

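No called value changed sign under the 13 alternatives that give a value per gene. A Z-score of 3 left 0 members higher and 0 lower in CY against NS (1.42% and 0.766% of all genes), 0 lower in NAC + CY against NS (0.798%), and 0 higher and 1 lower (Oasl2) in NAC + CY against CY (0.672% and 1.35%). The ratio of 1.5 alone gave 9 higher and 2 lower in CY against NS and 7 higher in NAC + CY against NS, with the shares of all genes given above. Rsad2 was not called lower in CY against NS with a window of 100 probes (0 lower, 2.88% of all genes), nor in NAC + CY against NS with normexp or with a floor at the lowest well-above-background signal (0 lower each, 2.23% and 3.00% of all genes). Oas2 was not called in NAC + CY against CY with normexp, a window of 100 or a window of 400 probes (0 higher each, 1.18%, 1.60% and 1.41% of all genes). Counting a member when any of its probes was called gave 1 lower in acrolein against NS (1.75% of all genes), the dim probe of Rsad2. Ifit1, Ifit3, Isg15 and Oasl2 kept their calls in CY against NS under every alternative but the Z-score of 3, and Zbp1 was also called higher with normexp. Normexp drew dim members towards 0, with log2 ratios in CY against NS of 0.51 for Dhx58, 0.49 for Mx2 and 0.25 for Mx1. No paired analysis was possible because each condition has 1 array.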
